A study of Homo sapiens with 6 samples.

Results

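The RB family and the E2F transcription factors other than *E2F3* were followed through Ago2-IP-seq and mRNA-seq of Hep G2 cells. The group was chosen by gene symbol. It holds *RB1*, *RBL1*, *RBL2*, *E2F1*, *E2F2*, *E2F4*, *E2F5*, *E2F6*, *E2F7* and *E2F8*, 10 of the 21863 gene symbols with deposited values, and all 10 had an RPKM above 0 in each of the 6 libraries. Hep G2 is a cell line from a human liver tumor. Cells were transfected with 5 nM of dsRNA mimicking *miR-195*, with 5 nM of dsRNA mimicking *miR-497*, or not transfected (NT), and from each condition 1 Ago2-IP library and 1 total RNA library were sequenced. The mimic libraries were taken at 24 hours, whereas the labels give 0 hours for NT. A mimic therefore cannot be told apart from transfection or from time in culture in any comparison with NT, and the comparisons of both mimics share the NT libraries. With 1 library per condition and kind of RNA, the conditions could not be tested against each other, and no replicate spread exists.

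E2F factors bind DNA, mostly as dimers with a DP protein, and control genes needed for DNA replication and cell division. The pocket proteins RB1, RBL1 (p107) and RBL2 (p130) bind E2F factors and hold these genes down in resting and early G1 cells. Cyclin D with CDK4 or CDK6, and then cyclin E with CDK2, phosphorylate the pocket proteins and release the E2F factors. *E2F1*, *E2F2* and *E2F3* are known as activators, *E2F4* and *E2F5* as repressors that act with pocket proteins, *E2F6* as a repressor that acts without them, and *E2F7* and *E2F8* as atypical repressors that bind DNA without a DP partner. Several of these genes are themselves E2F targets.

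The mature miRNAs are shown because they share their seed, the part that pairs with a target RNA. Both sequences are from RefSeq (table of build GRCh38.p14), and bases 2 to 8, the seed, are in capitals. On GRCh37, the assembly also called hg19, they lay on the minus strand of chromosome 17, at chr17:6920986-6921006 for *miR-195* and at chr17:6921298-6921318 for *miR-497*.
hsa-miR-195-5p: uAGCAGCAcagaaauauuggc
hsa-miR-497-5p: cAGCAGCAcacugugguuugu
Position by position, 12 of their 21 bases were equal, 7 of them in the seed.

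The 7 bases that pair with the seed, TGCTGCT, were searched in all 3′UTRs annotated by GENCODE release 44 on GRCh37. Among the 10 members *E2F7* alone carried them, in 2 places. Both are shown with the neighboring bases of the E2F7 strand, the target sequence in capitals.
E2F7, chr12:77417031-77417037: tagcagcctaacTGCTGCTtctcaaataac
E2F7, chr12:77415209-77415215: tattaattttatTGCTGCTtactgcttttg
They began at bases 758 and 2580 of the 2764-base 3′UTR of the canonical transcript on the minus strand, and neither was followed by the A that makes the 8-base form. Over all symbols with an annotated 3′UTR, 4606 of 18210 (25.3%) carried the sequence and 1249 (6.86%) carried it at least 2 times in the longest 3′UTR. *E2F3*, the E2F factor outside the group, carried it in 1 place, followed by A.
E2F3, chr6:20493152-20493158: gtaccattgagtTGCTGCTattaaagctca
The 8-base form TGCTGCTA was in none of the members and in 5.14% of all symbols with a 3′UTR. The shorter GCTGCT was in 4 members (*RBL1*, *RBL2*, *E2F2* and *E2F7*) and in 45.9% of all. In the coding sequence, TGCTGCT occurred 1 time each in *RBL1*, *RBL2*, *E2F1* and *E2F5*, compared with 34.0% of 19553 canonical coding sequences. These are matches of letters, not shown to be sites of binding.

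RPKM scales the reads of a gene by its length and by the reads mapped in the library, so levels of different genes can be compared as far as the length used is right. From the steps between RPKM values, the reads behind 9 of the members were inferred as whole numbers, and those of *RB1*, where this failed, were estimated from the annotated length. The smallest member count was 35 reads (*E2F2*, Ago2-IP with *miR-497*). Mapped reads were estimated at 24800000 to 31100000 in total RNA and 10700000 to 16900000 in Ago2-IP. The 95% intervals below rest on these reads and cover counting error alone. The median of all genes moved between libraries, in Ago2-IP by 0.48 (log2) with *miR-195* and by -0.23 with *miR-497*. Changes are therefore given as log2 ratios minus the median of all genes in the comparison, and a gene is called lower or higher when it lies past 1.5-fold of that median. Of 8 hepatocyte genes in NT total RNA, *AFP* was highest at 4884 RPKM and *APOB* next at 1199. *SERPINA1* had 671, *APOA1* 635, *TF* 386, *ALB* 61.4 and *FGB* 27.0 RPKM. *TTR* had only 1.52 RPKM, under the 5.51 of the median gene above 0, so the hepatocyte genes did not all stand high. Of the markers of other cell types, *PTPRC* and *CD3E*, which mark blood cells, were at 0 in every library.

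In NT total RNA the repressors that act with pocket proteins, and the pocket proteins *RB1* and *RBL2*, were the most abundant members. *E2F4* was highest at 38.5 RPKM, followed by *E2F5* at 25.0, *RB1* at 24.3 and *RBL2* at 17.0. *E2F1* at 13.1 and *RBL1* at 11.9 stood in the middle, and *E2F6* at 7.74, *E2F8* at 5.56, *E2F7* at 3.56 and *E2F2* at 2.69 were low. The counting intervals of neighbors met for *E2F5* and *RB1* and for *E2F1* and *RBL1*, and no other neighbors in this order overlapped. These intervals do not cover the gene length behind RPKM, on which an order of genes also depends. The length implied by the reads was 0.706 of the canonical transcript for *E2F5* and 0.771 for *RBL1*, and a shorter length gives a higher RPKM. The median member had 12.5 RPKM, compared with 5.51 for all genes above 0. From the lowest to the highest member the levels spanned 14.3-fold in NT, 22.1-fold with *miR-195* and 20.1-fold with *miR-497*. *E2F4* stayed first in all 3 total RNA libraries, and the lowest place passed from *E2F2* to *E2F7* with both mimics, though with both the intervals of these genes met.

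**Figure D1:**
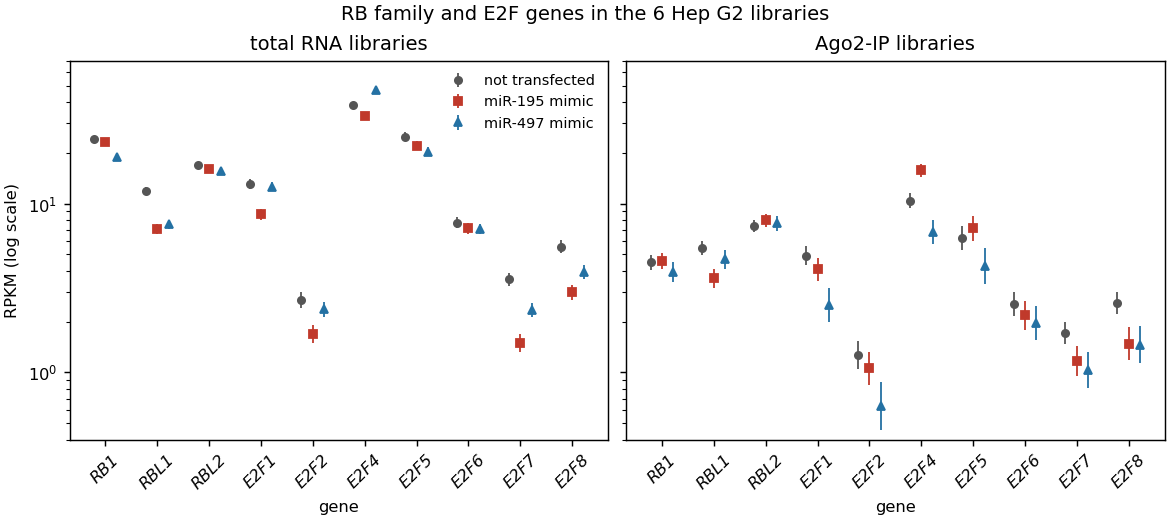
RPKM (log scale) of the 10 members in the 3 total RNA libraries (left) and the 3 Ago2-IP libraries (right), 1 point per library, with 95% counting intervals where larger than the point. *E2F4* is the highest member in 5 of the 6 libraries and is second to *RBL2* (7.67 RPKM) in Ago2-IP with *miR-497*.

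The question of the total RNA comparison is which transcripts were at another level after a mimic. With *miR-195*, 5 of the 10 members were lower (*RBL1*, *E2F1*, *E2F2*, *E2F7* and *E2F8*) and 0 were higher, where 8.93% of all 14740 genes were lower and 12.9% higher. All 10 lay below the median of all genes, and their own median was -0.42 (log2). With *miR-497*, 3 of the 10 were lower (*RBL1*, *E2F7* and *E2F8*) and 0 higher, with 7.36% of all genes lower and 14.2% higher, and the median of the members was -0.33. Among genes at 1 RPKM or more in both libraries, to which all 10 members belong, 5.91% were lower and 5.62% higher with *miR-195*, and 3.75% were lower and 9.34% higher with *miR-497*.

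**Figure D2:**
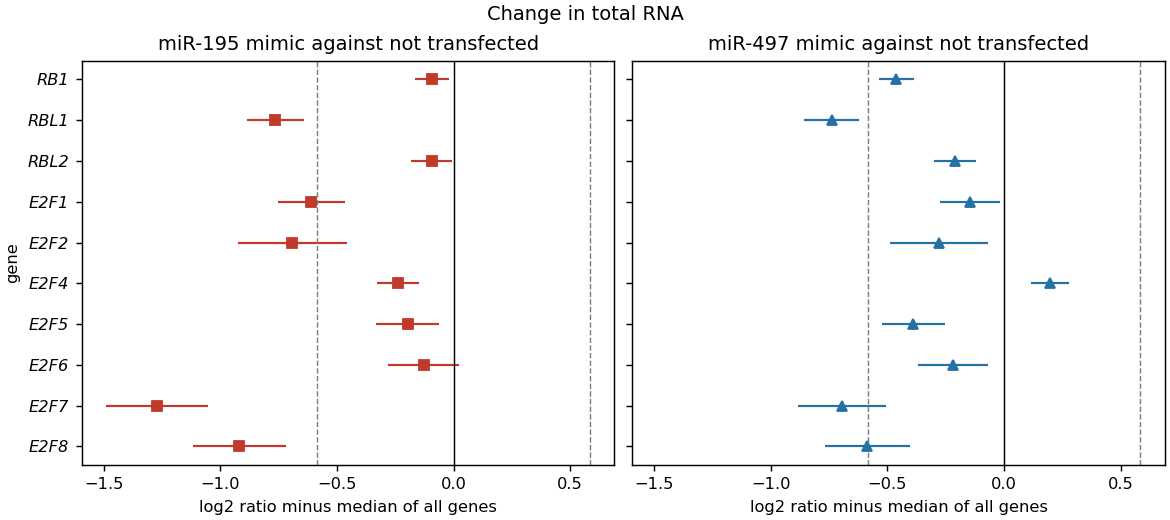
Total RNA with each mimic against NT, as log2 ratio minus the median of all genes, with 95% counting intervals. The solid line is the median of all genes, and the dashed lines are 1.5-fold. With *miR-195* (left) *E2F7* lies farthest to the left at -1.27, and with *miR-497* (right) *RBL1* does at -0.74.

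Of the pocket proteins, *RBL1* was the one that was lower. This E2F-regulated partner of the repressor E2F factors had 11.9 RPKM in NT, 7.06 with *miR-195* and 7.57 with *miR-497*. Both mimic libraries lay well under NT and close to each other. The *miR-195* change was -0.77 (95% interval -0.89 to -0.64), and the *miR-497* change was -0.74 (-0.86 to -0.62). *RB1*, the retinoblastoma tumor suppressor, had 24.3, 23.1 and 18.8 RPKM in the same order. It stayed near NT with *miR-195* (-0.09, -0.16 to -0.02) and was moderately under it with *miR-497* (-0.46, -0.54 to -0.39), not past 1.5-fold. *RBL2*, the pocket protein typical of resting cells, had 17.0, 16.1 and 15.6 RPKM, with changes of -0.09 (-0.18 to -0.01) and -0.21 (-0.30 to -0.12). The 3 pocket proteins thus did not stand together in total RNA.

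The activators *E2F1* and *E2F2* were lower with *miR-195* and not with *miR-497*. *E2F1*, which drives entry into S phase, had 13.1 RPKM in NT, 8.67 with *miR-195* and 12.6 with *miR-497*. Its change was -0.61 (-0.75 to -0.47) with *miR-195*, an interval that spans the 1.5-fold limit, and it was no longer past it when libraries were scaled by their 75th percentile (-0.53) or with a pseudocount of 1 (-0.55). It was -0.14 (-0.27 to -0.02) with *miR-497*. *E2F2*, a close relative, had 2.69, 1.69 and 2.36 RPKM, and its changes were -0.69 (-0.92 to -0.46), again an interval across the limit, and -0.28 (-0.49 to -0.07). With a pseudocount of 1 the *miR-195* change of *E2F2* was within the limit too (-0.47). *E2F3*, the third activator, had 9.35, 6.87 and 7.41 RPKM and was not past 1.5-fold with either mimic, at -0.46 (-0.58 to -0.34) and -0.43 (-0.55 to -0.31).

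The repressors that act with pocket proteins stayed within 1.5-fold. *E2F4*, the main E2F of resting cells, had 38.5 RPKM in NT, 33.0 with *miR-195* and 46.9 with *miR-497*. It was the only member with opposite signs, at -0.24 (-0.33 to -0.15) and 0.20 (0.11 to 0.28), and the only one above the median of all genes with *miR-497*. *E2F5*, its closest relative, had 25.0, 22.1 and 20.4 RPKM and changes of -0.20 (-0.33 to -0.06) and -0.39 (-0.52 to -0.25). *E2F6*, which represses through Polycomb proteins, had 7.74, 7.15 and 7.08 RPKM. Its values were close in all 3 libraries, with changes of -0.13 (-0.28 to 0.02) and -0.22 (-0.37 to -0.07).

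The atypical repressor *E2F7* was lower with both mimics, and *E2F8* was lower with *miR-195* and at the limit with *miR-497*. *E2F7*, the member with target sequence in its 3′UTR, had 3.56 RPKM in NT, 1.49 with *miR-195* and 2.34 with *miR-497*. Its level with *miR-195* was 0.414 of NT after centring (0.356 to 0.482), a change of -1.27, and 1.3% of all genes lay under that value. With *miR-497* it was 0.618 of NT (0.543 to 0.703), or -0.69. This interval spans the 1.5-fold limit, and with a pseudocount of 1 the change was within it (-0.48). *E2F8*, which has no such sequence in its 3′UTR, had 5.56, 2.98 and 3.95 RPKM. Its *miR-195* change was -0.92 (-1.12 to -0.72) and its *miR-497* change -0.59 (-0.77 to -0.40), the latter so close to the limit of 1.5-fold that counting error alone could place it on either side. Each of the 5 other pseudocounts, scalings and filters tried took this call away, with values from -0.56 to -0.44. *E2F7* was the only member lower by more than 2-fold in total RNA.

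Set against each other in total RNA, the mimics differed by less than 1.5-fold for all 10 members, 0 lower and 0 higher with *miR-195* than with *miR-497*, where 9.21% of all genes were lower and 7.06% higher. The nearest to the limit was *E2F7*, at -0.58 (-0.80 to -0.35). *E2F1* (-0.47, -0.61 to -0.33), *E2F4* (-0.44, -0.52 to -0.36), *E2F2* (-0.41, -0.64 to -0.19) and *E2F8* (-0.34, -0.54 to -0.13) were also lower with *miR-195* by more than counting error. *RB1* (0.37, 0.30 to 0.44), *E2F5* (0.19, 0.06 to 0.32) and *RBL2* (0.11, 0.03 to 0.20) were higher with *miR-195* by more than counting error. For *RBL1* the difference was -0.03 (-0.16 to 0.10), and for *E2F6* it was 0.09 (-0.06 to 0.24), so these were not told apart at this depth. These intervals hold no variation between cultures, and whether these differences are larger than that was not tested.

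The Ago2-IP libraries hold RNA that came down with Ago2, the protein that carries miRNAs to their targets. In NT the members had 0.185 (*RB1*) to 0.480 (*E2F7*) of their total RNA RPKM in Ago2-IP, compared with 0.326 for the median gene. *RB1*, at 0.568 of that median, was past 1.5-fold under it, and the other 9 members were not past it on either side. *E2F4* was first at 10.4 RPKM and *E2F2* last at 1.27, as in NT total RNA. *RBL2* at 7.41 and *E2F5* at 6.28 followed *E2F4*, and *RB1* at 4.51 ranked 6, compared with 3 in total RNA. The intervals of neighbors from *RBL2* down to *RB1* met.

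With *miR-195*, 6 of the 10 members were lower in Ago2-IP (*RBL1*, *E2F1*, *E2F2*, *E2F6*, *E2F7* and *E2F8*) and 0 higher. Of all genes, 17.4% were lower and 21.4% higher. The median of the members was -0.72, and 9 of 10 lay below the median of all genes. With *miR-497*, 3 of the 10 were lower (*E2F1*, *E2F2* and *E2F8*) and 0 higher, with 10.3% of all genes lower and 12.3% higher, and the median was -0.36. Because the median gene itself was higher with *miR-195* and lower with *miR-497*, these counts depend on the centring, and without it 2 members were lower and 1 higher with *miR-195*, and 5 lower with *miR-497*.

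*RBL1* had 5.47 RPKM in Ago2-IP of NT, 3.61 with *miR-195* and 4.67 with *miR-497*. The *miR-195* value was lower (-1.08, -1.32 to -0.84), and the *miR-497* value lay at the median of all genes (0.00, -0.24 to 0.24). *RB1* with 4.51, 4.59 and 3.95 RPKM and *RBL2* with 7.41, 7.98 and 7.67 RPKM hardly differed in deposited RPKM. After centring, *RB1* stood at -0.45 (-0.67 to -0.23) and 0.04 (-0.21 to 0.29), and *RBL2* at -0.37 (-0.54 to -0.19) and 0.28 (0.09 to 0.47).

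*E2F1* had 4.91 RPKM in Ago2-IP of NT, 4.08 with *miR-195* and 2.50 with *miR-497*. Both changes were -0.74 after centring, with intervals of -1.04 to -0.44 and -1.13 to -0.36. *E2F2* had 1.27, 1.06 and 0.633 RPKM, on 111, 75 and 35 reads, and changes of -0.74 (-1.16 to -0.31) and -0.78 (-1.33 to -0.23). Both activators were thus lower in Ago2-IP with *miR-497*, where their total RNA was within 1.5-fold. However, each of these Ago2-IP intervals spans the 1.5-fold limit. With a pseudocount of 1, *E2F2* was within the limit with both mimics (-0.39 and -0.35) and *E2F1* with *miR-195* (-0.47).

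*E2F4* had 10.4 RPKM in Ago2-IP of NT, 15.7 with *miR-195* and 6.79 with *miR-497*. Of the members it was the one above the median of all genes with *miR-195* (0.12, -0.08 to 0.32), and with *miR-497* it was at -0.39 (-0.66 to -0.12). *E2F5* had 6.28, 7.13 and 4.25 RPKM, with changes of -0.29 (-0.63 to 0.04) and -0.34 (-0.76 to 0.09) whose intervals reached 0. *E2F6* had 2.55, 2.18 and 1.96 RPKM. It was lower with *miR-195* (-0.71, -1.07 to -0.34), a call that the centring decides, since its deposited RPKM was 0.852 of NT. The *miR-195* calls of *E2F1*, *E2F2* and *E2F7* in Ago2-IP rest on the centring too. Their deposited RPKM was 0.831, 0.835 and 0.682 of NT.

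*E2F7* had 1.71 RPKM in Ago2-IP of NT, 1.16 with *miR-195* and 1.03 with *miR-497*. Its RNA in Ago2-IP was lower with *miR-195* (-1.03, -1.40 to -0.66) and not past 1.5-fold with *miR-497* (-0.50, -0.92 to -0.08). *E2F8* had 2.59, 1.48 and 1.46 RPKM, and was lower with both, at -1.28 (-1.68 to -0.89) and -0.60 (-1.03 to -0.16), the latter again next to the limit and within it (-0.58) with a pseudocount of 0.1 or scaling by the 75th percentile. These changes run in the same direction as those in total RNA.

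**Figure D3:**
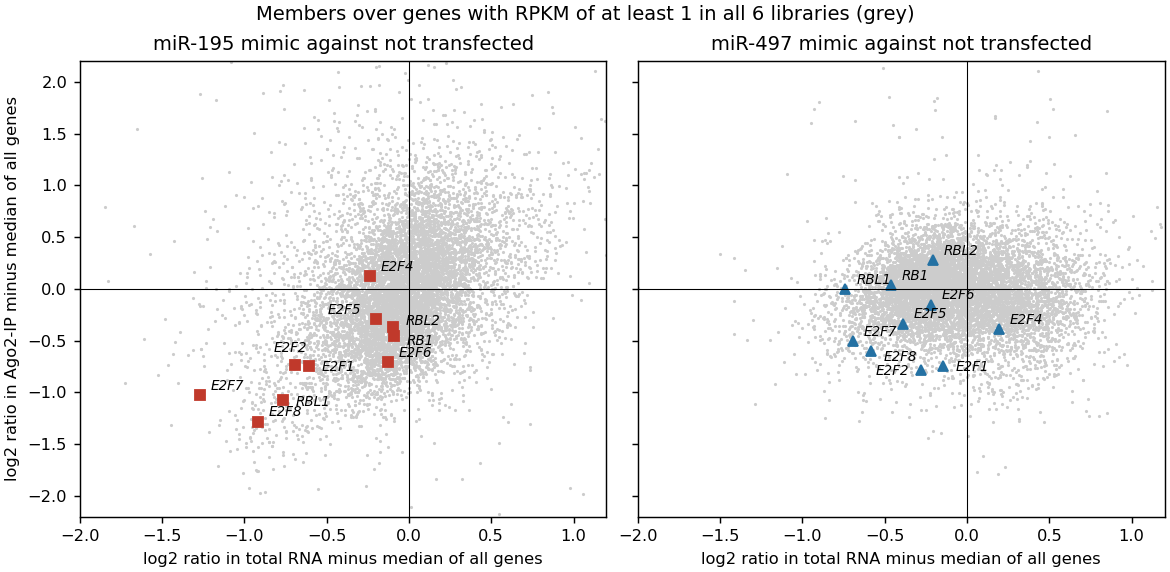
Change in total RNA (x axis) and in Ago2-IP (y axis) with each mimic against NT, both as log2 ratio minus the median of all genes. Grey points are genes at 1 RPKM or more in every library, and genes beyond the axis limits are not drawn. With *miR-195* (left) 9 of the 10 members lie in the lower left part, *E2F4* (-0.24 and 0.12) being the other one.

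In Ago2-IP the mimics differed past 1.5-fold for 3 members, which were lower with *miR-195* than with *miR-497*, and 0 were higher, where 21.4% of all genes were lower and 24.2% higher. They were *RBL1* (-1.05, -1.32 to -0.78), *E2F8* (-0.66, -1.15 to -0.16) and *RBL2* (-0.61, -0.81 to -0.42). The median gene was 0.67 higher with *miR-195* in this comparison, and without centring *RBL2* and *E2F8* were at 0.06 and 0.02, and *RB1*, *E2F6* and *E2F7*, not past 1.5-fold, also changed sign, to 0.21, 0.15 and 0.18.

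The fold enrichment score divides the Ago2-IP to total RNA ratio with a mimic by that of NT and was made to find RNA drawn to Ago2 by the mimic. For *miR-195* the median score of all genes was 1.38, and for *miR-497* it was 0.824, so a score is read here against that median. With *miR-195*, 0 of the 10 members were higher and 0 lower, where 18.6% of all genes were higher and 16.9% lower. With *miR-497*, 1 was higher (*RBL1*) and 2 were lower (*E2F1* and *E2F4*), where 12.6% of all genes were higher and 20.6% lower. The shares of the members are near or under those of all genes in both comparisons.

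The highest scores with *miR-195* were those of *E2F4* (1.76) and *E2F7* (1.63), at 0.35 (0.14 to 0.57) and 0.24 (-0.19 to 0.67) on the log2 scale after centring. The interval of *E2F7*, the member with target sequence, thus included the median of all genes, and so did its interval with *miR-497* (score 0.917, 0.15, -0.30 to 0.61). For comparison *E2F3* scored 2.07 with *miR-195*, at 0.58 (0.36 to 0.80), a value just inside the 1.5-fold limit. *E2F6* had the lowest score with *miR-195*, 0.921, at -0.58 (-0.98 to -0.19), also just inside the limit. The others scored 1.33 (*E2F2*), 1.29 (*E2F5*), 1.25 (*E2F1*), 1.14 (*RBL2*), 1.11 (*RBL1*), 1.07 (*RB1*) and 1.07 (*E2F8*), all under the median score of all genes.

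With *miR-497* the pocket proteins had the highest scores of the group. *RBL1* scored 1.34, at 0.70 (0.44 to 0.97) after centring, *RB1* scored 1.14, at 0.46 (0.20 to 0.72), and *RBL2* scored 1.12, at 0.45 (0.24 to 0.66). The high score of *RBL1* came from total RNA, which was lower, while its Ago2-IP change stood at the median. *E2F1* (0.530, at -0.64, -1.04 to -0.23), *E2F4* (0.535, at -0.62, -0.91 to -0.34) and *E2F2* (0.568, at -0.54, -1.12 to 0.05) had the lowest scores. *E2F6* (0.840), *E2F5* (0.832) and *E2F8* (0.797) lay within 0.05 of the median of all genes on the log2 scale. *E2F4* thus had the highest score of the group with *miR-195* and one of the lowest with *miR-497*.

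**Figure D4:**
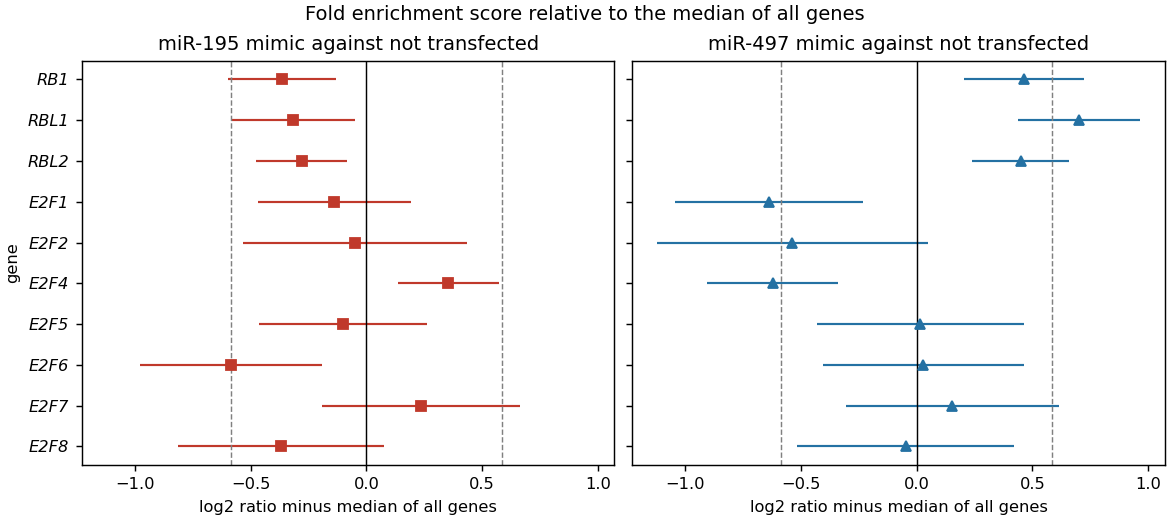
Fold enrichment score of each member with *miR-195* (left) and *miR-497* (right), as log2 score minus the median of all genes, with 95% counting intervals from the 4 libraries of each score. The dashed lines are 1.5-fold. With *miR-497* the 3 pocket proteins lie right of the median, from 0.45 to 0.70, and *E2F1*, *E2F2* and *E2F4* left of it, from -0.64 to -0.54.

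E2F factors recognize short sequences rich in thymine at one end and in guanine and cytosine at the other, and some of the members are regulated by E2F themselves. The letters TTTCGCG were searched, as were TTTGGCG and, as another form, TTTGCGC, all on both strands from 250 bases before to 50 bases after the start of the canonical transcript in the GENCODE annotation. At least 1 of them was present in 4 of the 10 members and in 1201 of 19528 promoters (6.15%). The shares were 1.74% for TTTCGCG, 2.3% for TTTGGCG and 2.37% for TTTGCGC, which none of the members had. The matches are shown because the members that carry them are among those that were lower, with the matching letters in capitals on the strand of the gene (GRCh37).
E2F1, chr20:32274211-32274239: gctcgtggctcTTTCGCGgcaaaaaggat
E2F1, chr20:32274194-32274222: ggcaaaaaggaTTTGGCGcgtaaaagtgg
E2F2, chr1:23857765-23857793: ggagatccgaaTTTCGCGgcacgacgttt
E2F2, chr1:23857750-23857778: gcggcacgacgTTTGGCGctaaaaaaaaa
RBL1, chr20:35724409-35724437: cagctgcagatTTTCGCGcgctttggcgc
E2F8, chr11:19262676-19262704: ccgactttccgCGCCAAAtttttaaatcg
In *E2F1* the matches began at -37 and -20 from the start, in *E2F2* at -57 and -42, and in *RBL1* at -26 and -16, the second of these standing in lower case in the window shown. The match of *E2F8* at -201 reads TTTGGCG on the other strand. The E2F1, E2F2, RBL1 and E2F8 genes are all on the minus strand. *E2F3* had 1 match, at -39, and was not past 1.5-fold in total RNA with either mimic (-0.46 with *miR-195* and -0.43 with *miR-497*).

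All 4 members with a match were lower in total RNA with *miR-195* (median -0.73), and 2 of them with *miR-497* (median -0.43). Of the 6 members without a match, 1 was lower with each mimic, *E2F7*, and their medians were -0.16 and -0.30. Over all genes with *miR-195*, 113 of 993 with a match were lower and 59 higher, and 1042 of 12392 without one were lower and 1523 higher. With *miR-497*, 96 of 995 with a match were lower and 83 higher, and 823 of 12413 without one were lower and 1746 higher. Those with a match had medians of -0.08 and -0.10 in the same order, and those without had 0.00 in both. A match is a description of the letters, and its part in the change was not tested.

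The other genes of the pathway were described by lists. Of all genes in total RNA, 8.93% were lower and 12.9% higher with *miR-195*, and 7.36% lower and 14.2% higher with *miR-497*. The DP partners *TFDP1* and *TFDP2* stayed within 1.5-fold with both mimics, *TFDP1* at 39.7, 35.1 and 40.8 RPKM in NT, *miR-195* and *miR-497* total RNA, and *TFDP3* was listed at 0 in all libraries. The MuvB core forms the DREAM repressor complex with pocket proteins and E2F4 or E2F5. Of 6 genes for this core and for B-MYB, which is not part of that repressor, 3 were lower with *miR-195*, 2 were lower with *miR-497*, and 0 were higher. *LIN9* (6.86, 4.24 and 4.03 RPKM) changed by -0.71 and -0.86, *LIN54* (11.1, 6.99 and 7.53 RPKM) by -0.68 and -0.65, and *MYBL2* (58.3, 34.7 and 53.7 RPKM), which encodes B-MYB and is an E2F target, by -0.77 and -0.21. Of 9 genes for proteins of the Polycomb complex of E2F6, 0 were lower and 0 higher with either mimic, and *PCGF6* moved most, by -0.50 with both. Among 6 corepressors, 1 was lower with *miR-195*, the histone methyltransferase gene *SUV39H1* (-0.59 and -0.07), and 0 with *miR-497*. *SIN3B* had 0.34 and 0.51.

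Genes that act on the pocket proteins varied more. Of 8 cyclin and CDK genes, 4 were lower and 1 higher with *miR-195* in total RNA, and 3 lower and 0 higher with *miR-497*. *CCND3* (10.7, 3.42 and 8.22 RPKM) changed by -1.67 and -0.48, *CCNE1* (21.0, 6.76 and 10.2 RPKM) by -1.65 and -1.12, and *CDK6* (52.3, 22.7 and 25.9 RPKM) by -1.22 and -1.10. *CDK4* changed by -0.64 and -0.13, and *CCNE2* by -0.47 and -0.62. The higher one was *CCND2*, with 0.75 RPKM in NT, so it is under the RPKM of 1 asked of the others. In the fold enrichment score 5 of these 8 were higher with *miR-195* and 1 lower (*CCNE2*, -0.83), beside 18.6% and 16.9% of all genes, and with *miR-497* 2 were higher and 0 lower, beside 12.6% and 20.6%. Of 6 measured CDK inhibitors, 1 was lower with *miR-195*, *CDKN2C* (-1.05 and -0.45), which encodes p18, an inhibitor of CDK4 and CDK6, and 1 was higher with each mimic, *CDKN2B* with *miR-195* and *CDKN2A* with *miR-497*, both under 1 RPKM in every library.

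Most of the listed genes that E2F and DREAM control were lower with *miR-195*. Of 30 E2F target genes of S phase, 25 were lower with *miR-195*, 14 were lower with *miR-497*, and 0 were higher, where 8.93% and 7.36% of all genes were lower. Their medians were -0.77 and -0.57. *CHEK1*, a checkpoint kinase, changed by -0.98 and -0.69, *CCNA2*, cyclin A2, by -0.93 and -0.78, and *GINS2*, a part of the replicative helicase, by -0.91 and -0.66. Of 19 DREAM target genes of mitosis, 18 were lower with *miR-195*, 10 were lower with *miR-497*, and 0 were higher, with medians of -0.85 and -0.63. *CDK1*, the kinase of mitotic entry, changed by -1.21 and -0.92, *BIRC5*, survivin, by -1.10 and -0.63, and *TTK*, a spindle checkpoint kinase, by -1.03 and -0.80. With *miR-195* the lower members *RBL1*, *E2F1*, *E2F2* and *E2F8* lay within the range of both lists, *E2F7* lay under the lowest gene of either, and *RB1*, *RBL2*, *E2F4*, *E2F5* and *E2F6* lay nearer to the median of all genes. In such bulk RNA, fewer cells in S phase or mitosis and less RNA per cell cannot be told apart.

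**Figure D5:**
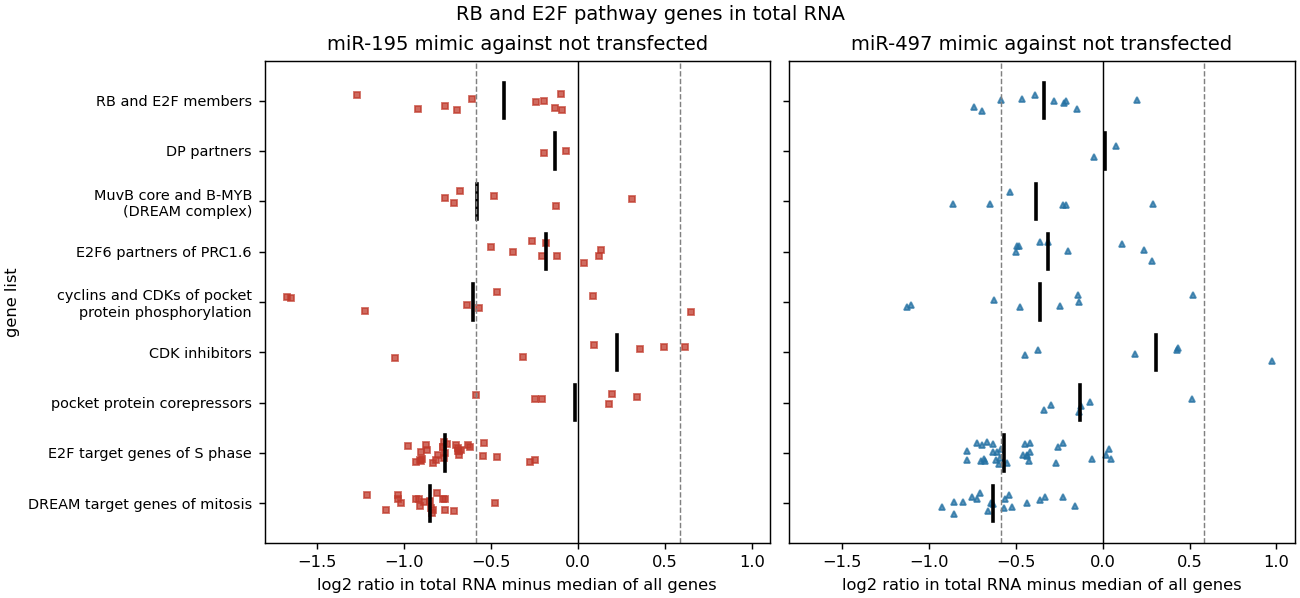
Total RNA with each mimic against NT, as log2 ratio minus the median of all genes, 1 point per gene, for the 10 members and 8 lists of pathway genes. Black bars are medians, and dashed lines are 1.5-fold. The medians of the members are -0.42 and -0.33, and those of the S phase targets are -0.77 and -0.57.

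The positions of the genes bear on how far the reads can be assigned, because the strand setting of the counting is not stated. On GRCh37 exons of *RBL2* (chr16:53467889-53525560) overlap opposite-strand genes, among them *AKTIP*, over 990 bases, those of *E2F5* (chromosome 8) overlap *RBIS* and another opposite-strand gene over 604 bases, those of *RBL1* (chr20:35624752-35724400) overlap an opposite-strand gene over 213 bases, and those of *E2F8* (chr11:19245610-19263167) overlap *CSRP3-AS1* over 7 bases. Reads from these stretches cannot be told apart without strand. *RB1* (chr13:48877880-49173572) has *LPAR6* and *RCBTB2* inside its annotated span, with no overlapping exons. For *E2F1* (chr20:32263283-32274191), *E2F2* (chr1:23832930-23857725), *E2F4* (chr16:67226058-67232821), *E2F6* (chr2:11584501-11606303) and *E2F7* (chr12:77415028-77459349) no exon of another gene overlapped theirs.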

How the data were processed

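mRNA-seq and Ago2-IP-seq of Hep G2 cells gave 6 libraries, 1 per condition and kind of RNA. The deposited values are RPKM, which the authors obtained with CASAVA 1.7 after aligning single reads of 36 bases to hg19 by ELANDv2. Gene annotation, strand setting and the libraries with poly-A selection are not given in the sources used here. The 21891 lines hold 21863 symbols, of which 28 were averaged, and 0 of 6 value columns were unmatched.

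Ratios were taken without a pseudocount over genes above 0 in every library compared, centred on the median of all genes and called past 1.5-fold. No p-values were calculated. Whole reads were inferred from RPKM steps (tolerance 0.02 of a read) for 14208 of the 15487 genes detected in 3 or more libraries, a step tested on simulated data. The lengths they imply were 0.706 to 1.06 of the canonical transcript for the 9 members resolved. For some genes outside the group the inferred reads were too many for the gene's length, and these reads are not printed. Intervals of 95% assume independent reads.

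Of the symbols, 18208 matched GENCODE release 44 directly, 2278 by a unique older symbol and 1377 not.

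Members and lists were chosen with earlier results of these data known. Named were all members, *E2F3*, genes of the DP, MuvB and cyclin and CDK lists past 1.5-fold in total RNA at an RPKM of at least 1, and up to 3 genes per other list with large changes. *TFDP1*, *CCND2*, *CDKN2A*, *CDKN2B* and the marker genes were added after their values were seen. A marker of another cell type is not reported here. Alternatives were pseudocounts of 0.1 and 1, no centring, scaling by the 75th percentile, a minimum RPKM of 1, a 2-fold limit and target sequences of 6 and 8 bases. Python 3.11.15, numpy 2.4.6, pandas 2.3.3, scipy 1.17.1 and matplotlib 3.10.9 were used.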

Additional observations from a re-analysis of the deposited data

How the results depend on the processing

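The counts of members past the limit that moved by over 1.5 times, or from or to 0, were as follows. With a pseudocount of 1, total RNA had 3 (*miR-195*) and 1 (*miR-497*) lower members, Ago2-IP had 2 and 1, 1 was lower and 0 higher in the *miR-497* score, and in Ago2-IP 1 was lower and 1 higher with *miR-195* than with *miR-497* (also 1 higher with a pseudocount of 0.1). With a 2-fold limit, 1 and 0 were lower in total RNA, 3 and 0 in Ago2-IP, 0 lower and 0 higher in the *miR-497* score, and 1 lower in Ago2-IP between mimics. Without centring, 2 were lower and 1 higher in Ago2-IP with *miR-195*, 5 lower with *miR-497*, 2 higher in the *miR-195* score, 0 higher in the *miR-497* score, 1 lower in total RNA between mimics, and 0 lower and 4 higher in Ago2-IP between mimics, where the called *RBL2* (0.0581) and *E2F8* (0.0169) changed sign, as did the uncalled *RB1*, *E2F6* and *E2F7*. Scaling by the 75th percentile, or a minimum RPKM of 1, put 1 member lower in the *miR-195* score. Smaller moves were 3 to 2 lower members in total RNA with *miR-497* (pseudocount of 0.1, no centring, 75th percentile, minimum RPKM of 1), 5 to 4 with *miR-195* (75th percentile), 3 to 2 in Ago2-IP with *miR-497* (pseudocount of 0.1, 75th percentile, minimum RPKM of 1), 2 to 3 in the *miR-497* score (no centring) and 3 to 2 in Ago2-IP between mimics (pseudocount of 0.1). Target sequence was in 0 members at 8 bases and in 4 at 6 bases. Of 397 values of single members recomputed, 352 stayed within the counting interval. Most of the others came from leaving out the centring, where 34 moved outside the interval and 2 called values changed sign. With a pseudocount of 1, 8 moved outside it, and with scaling by the 75th percentile 1 did. No paired analysis was possible because each group has 1 library, and for the same reason no library could be left out. Depth limits *E2F2*, *E2F8*, *E2F5* and *E2F7* most, in Ago2-IP with *miR-497*, at 35, 58, 63 and 63 reads.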
